A study of Homo sapiens and Mus musculus with 9 samples.

Results

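The regions described here are the human peaks that lie outside annotated genes in an enhanced UV crosslinking and immunoprecipitation (eCLIP) study of PXR, the pregnane X receptor encoded by NR1I2, which is a transcription factor activated by drugs and other foreign compounds. A peak was a member when its summit, on chromosomes 1 to 22 or X, fell in no gene span of any type in the RefSeq gene table of GRCh38.p14. Of 3706 human peaks, 3637 lay on these chromosomes and 311 were members, with 206 in the HepG2 list, 100 in the WT-named LS174T list and 5 in the KO-named LS174T list. All 4 lists of the series, liver included, held 5884 peaks.

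The study had 9 samples. HepG2 cells, a human hepatocellular carcinoma line, gave 1 input and 2 IPs that the labels tie to PXR as target and to an antibody against HA, with no tagged construct described. LS174T cells, a human colorectal adenocarcinoma line, gave an input and an IP from wild-type cells and a further IP from cells with PXR knocked out, both IPs with an antibody against PXR. Livers of humanized PXR mice gave 1 input and 2 IPs, and their list, on another genome, was not analysed here beyond its count of peaks. All human cells were irradiated at 254 nm with 400 mJ/cm2 and digested with RNase I before the IP. The LS174T lists carry WT and KO in their names and peak names, but the record attaches the first to the input of wild-type cells and the second to their PXR IP. The values of these lists were therefore not read as an effect of genotype or of the IP. The HepG2 group has 2 IP libraries and 1 list, and whether the list draws on both was not stated. No list holds values per library, so peaks were the unit of every test and are not replicates of a condition. Whether the knockout is 1 clone was not given in the sources used here.

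RNA from outside annotated genes has several well-known origins. Transcription by RNA polymerase II often runs past the 3′ end of a gene, and active promoters also fire in the opposite direction and give short, unstable upstream antisense RNAs. Enhancers are transcribed on both strands, and genes of RNA polymerase III, copies of mitochondrial or ribosomal RNA and unlisted noncoding RNA genes can lie between annotated genes. In eCLIP an abundant or well crosslinked RNA fragment appears as a narrow pile of reads on 1 strand.

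Hepatocyte markers were absent from the HepG2 list, with a peak in 0 of 15 genes (ALB, APOA1 and TTR among those without one). Colon epithelium markers had a peak in 3 of 15 (EPCAM, CDH17 and TFF1) and luminal breast markers in 8 of 14. The luminal genes were ESR1, GATA3, GREB1, XBP1, TFF1, KRT8, KRT18 and KRT19. Of these, TFF1, KRT8, KRT18 and KRT19 also had a peak in the WT-named list, and TFF1 counts in both marker sets. Colon markers in the WT-named list had a peak in 10 of 15, hepatocyte markers in 0 of 15 and luminal breast markers in 5 of 14, and in the KO-named list the counts were 0, 0 and 2. These lists hold called peaks and not RNA levels. Reads at each summit were worked out from the deposited fold and p, with a median of 9 in all HepG2 peaks, 11 in the WT-named list and 19 in the KO-named list. PCR copies may be among them, and intervals on reads or shares express counting error alone.

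Members close before a gene start could be set against RefSeq sequence, and 4 such sites that both human lists shared are printed, 250 bases each, as they end at the base before the annotated start. Sequences read 5′ to 3′ on the gene's strand, and capitals mark the bases covered by the HepG2 peak. The MARCHF9 window is chr12:57754853-57755102 with a minus-strand peak opposite to the gene, which encodes a membrane ubiquitin ligase. The ATP1B1 window is chr1:169106440-169106689 with a plus-strand peak on the strand of the gene, which encodes the beta subunit of the sodium pump. The window of the lncRNA LOC105371382 is chr16:85169027-85169276 (minus strand, peak on the same strand), and that of DISP2, a relative of the Hedgehog release factor, is chr15:40357969-40358218 (plus strand, peak on the minus strand).
MARCHF9: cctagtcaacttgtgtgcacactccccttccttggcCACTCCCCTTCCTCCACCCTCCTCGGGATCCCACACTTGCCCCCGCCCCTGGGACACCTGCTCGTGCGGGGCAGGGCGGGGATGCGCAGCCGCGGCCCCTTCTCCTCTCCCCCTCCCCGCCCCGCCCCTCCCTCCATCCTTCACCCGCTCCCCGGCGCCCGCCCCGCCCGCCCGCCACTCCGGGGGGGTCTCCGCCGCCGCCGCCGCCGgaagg
ATP1B1: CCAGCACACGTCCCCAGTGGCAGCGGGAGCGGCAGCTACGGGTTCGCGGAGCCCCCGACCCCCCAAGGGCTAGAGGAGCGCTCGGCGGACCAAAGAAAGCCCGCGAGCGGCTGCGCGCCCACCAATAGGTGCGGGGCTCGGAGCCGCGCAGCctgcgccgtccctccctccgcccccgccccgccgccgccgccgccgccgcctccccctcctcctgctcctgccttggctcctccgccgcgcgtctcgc
LOC105371382: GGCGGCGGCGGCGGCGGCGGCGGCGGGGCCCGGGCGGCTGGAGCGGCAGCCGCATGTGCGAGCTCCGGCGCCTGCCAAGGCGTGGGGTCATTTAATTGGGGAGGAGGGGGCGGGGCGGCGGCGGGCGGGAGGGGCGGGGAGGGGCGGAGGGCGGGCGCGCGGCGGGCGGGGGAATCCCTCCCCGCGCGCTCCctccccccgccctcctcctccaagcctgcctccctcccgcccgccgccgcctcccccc
DISP2: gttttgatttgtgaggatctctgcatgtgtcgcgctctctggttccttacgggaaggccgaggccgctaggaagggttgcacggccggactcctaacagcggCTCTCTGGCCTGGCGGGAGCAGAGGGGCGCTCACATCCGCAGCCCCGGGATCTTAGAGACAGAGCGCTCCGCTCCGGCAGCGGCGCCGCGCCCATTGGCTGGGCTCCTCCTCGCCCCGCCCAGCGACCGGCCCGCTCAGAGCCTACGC

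At MARCHF9 the summit lay 110 bp before the start in HepG2, with 68 reads, and 111 bp in the WT-named list, with 218 reads. At ATP1B1 it lay 170 bp before the start with 10 reads in HepG2 and 168 bp with 142 reads in the WT-named list, where the peak was 747 bp wide and ran into the gene. LOC105371382 held 11 and 16 reads, and DISP2 8 and 4, HepG2 given before the WT-named list. Counted over the windows of the RefSeq promoter table, whose starts can differ from the end of a gene span (as at MYOCOS) and which lacks some genes, 9 HepG2 and 7 WT-named members had their summit in one, 5 and 4 of them on the strand opposite to the gene. The windows were rich in G and C, with a median GC content of 76.0% in each list (ranges 51.2 to 83.6% and 68.0 to 83.6%) against 58.0% over all 35116 RefSeq windows. This is a description of few windows, and no test was made.

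A pair of shared sites adjoined microRNA genes and is shown because the peaks cover all or part of the mature RNA. The seed, bases 2 to 8, is in capitals. The mature miR-5100 lies at chr10:42997630-42997651 and miR-7977 at chr3:176515103-176515120, both on the plus strand like the peaks.
miR-5100: uUCAGAUCccagcggugccucu
miR-7977: uUCCCAGCcaacgcacca

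The MIR7977 peak began in HepG2 at position 176515103, where the mature RNA begins, and at 176515101 in the WT-named list, with 5 and 4 reads. Its summit lay 51 and 49 bp past the end of the hairpin, so that the rule placed it outside the gene although its span covered all 18 bases of the mature RNA. The MIR5100 peak covered 17 of 22 mature bases, with 4 reads in the HepG2 list and 9 in the WT-named one and its summit 54 bp past the hairpin in both. Over all members, the base at which a peak begins in its strand direction was set against genes of either strand. It lay inside one for 10 of 206 HepG2 and 10 of 100 WT-named members. Any base of the peak did for 18 and 14.

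The deepest member of both lists was a minus-strand stack of 200 bp at chr15:45228535-45228734, 12499 bp from the histone pseudogene H3P39. It held 780 reads in HepG2 (exact Poisson 95% interval 726 to 837) and 1376 in the WT-named list (interval 1304 to 1451), at identical start and end, and these were all the reads of its 10 kb window in each. The minus-strand site by LGALS1, the galectin-1 gene, held 152 and 124 reads at chr22:37675484-37675683. A plus-strand site at chr2:117012450-117012669, 11285 bp from NMTRL-TAA2-1, a nuclear copy of a mitochondrial tRNA gene, held 102 reads in the HepG2 list and 406 in the WT-named one. These sites were among the 10 deepest members of both lists.

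Other leading sites were deeper in 1 list. The plus-strand site at chr2:32916240-32916770, 10698 bp before the lncRNA LOC100271832, held 347 reads in HepG2 (interval 311 to 386) and 94 in the WT-named list (interval 76.0 to 115), and minus-strand peaks overlapped it with 45 reads in HepG2 and 22 and 13 in the WT-named list. A site at chr15:60128343-60128543, 38455 bp from LOC105370839, held 219 reads in the WT-named list and 10 in HepG2. A HepG2 peak at chr9:30851296-30851495, 19147 bp from RPS26P2, held 55 reads and its WT-named partner 3. Each list has its own depth, so these are reads in 2 lists and not levels in 2 cell lines.

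Of members with at least 50 reads, 1 of 9 in HepG2 and 2 of 13 in the WT-named list had no partner. In HepG2 it was the peak 5 bp past the 3′ end of HSPB1, a small heat shock protein gene, with 66 of the 549 reads in its window, and a peak of 263 reads lay inside the gene. The 2 WT-named members were at VTRNA2-1 (84 reads, 29 bp away) and at C1orf198 (56 reads, 2399 bp before its start on the same strand). VTRNA2-1 is annotated as a vault RNA gene and is transcribed by RNA polymerase III. The WT-named list had no peak in HSPB1 at all.

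**Figure D1:**
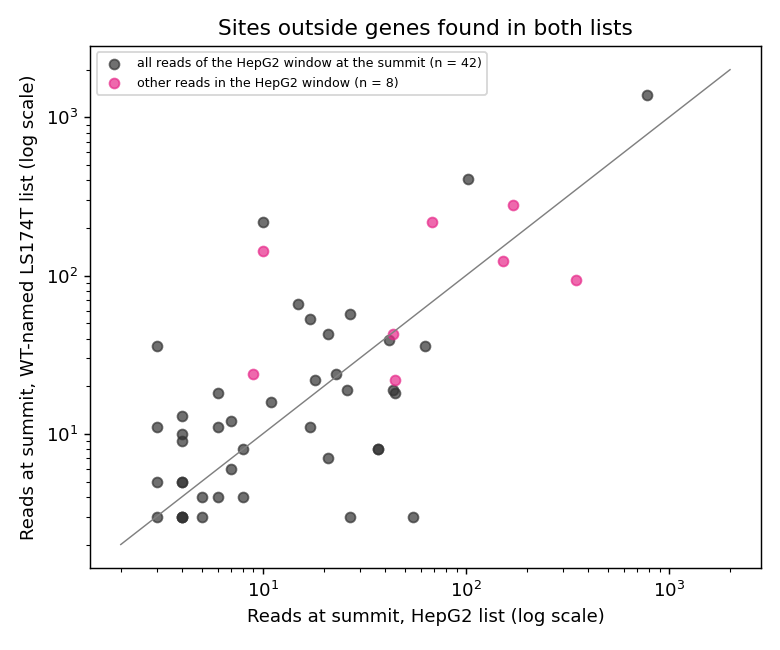
Reads at the summit of the 50 sites outside genes found in both lists, HepG2 on the horizontal and WT-named LS174T on the vertical log axis, 1 point per site, with the line of equal reads. Points fall on both sides of the line, 25 above and 23 below, and the stack of 780 and 1376 reads stands at the upper right.

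Most members rested on few reads. The median was 6 reads in HepG2 (quartiles 4 and 11) and 8 in the WT-named list (quartiles 4 and 19), against 10 and 11 for peaks inside genes. Peaks under 10 reads made up 144 of 206 HepG2 members (69.9%, 95% Clopper-Pearson interval 63.1 to 76.1%), where all HepG2 peaks gave 51.0% and those inside genes 48.0% (Fisher's exact adjusted p = 2.39e-08). WT-named members gave 55 of 100 (55.0%, interval 44.7 to 65.0%) against 42.3% of all peaks and 41.7% inside genes (Fisher's exact adjusted p = 0.0294). The HepG2 call was lost among peaks at −log10 q of 5 or more (exact adjusted p = 0.0728), and the WT-named call was lost there (adjusted p = 1), with 1 peak per locus (adjusted p = 0.223) and where no base of a peak could lie in a gene (adjusted p = 0.0662).

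Deep members were compared in the same way. Peaks with at least 50 reads were 9 of 206 HepG2 members (4.37%), close to the 4.58% of all HepG2 peaks and the 4.61% inside genes (Fisher's exact adjusted p = 1, odds ratio 0.946), and the odds ratio lay above 1 under 5 other settings, at up to 1.80 without LOC models, without passing the test. They were 13 of 100 WT-named members (13.0%, interval 7.11 to 21.2%) against 6.13% of all peaks and 5.78% inside genes (Fisher's exact adjusted p = 0.0294, odds ratio 2.43). That call was lost where no base of a peak could lie in a gene (exact adjusted p = 0.418). Reads were very uneven, since the 10 deepest members held 51.4% of the 3593 member reads in HepG2 and 73.9% of the 4069 in the WT-named list.

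Members stood alone more often than peaks inside genes. All reads of the surrounding 10 kb window lay at the summit of 167 of 206 HepG2 members (81.1%, interval 75 to 86.2%), against 30.3% of all HepG2 peaks and 22.4% of those inside genes (Fisher's exact adjusted p = 1.34e-58). WT-named members gave 82 of 100 (82.0%, interval 73.1 to 89.0%), against 15.5% of all peaks and 12.2% inside genes (Fisher's exact adjusted p = 1.25e-51). The trait was not particular to peaks outside all genes. Counting only gene spans of the peak strand or of unknown strand adds peaks that lie just in genes known to be on the opposite strand. Those standing alone were then 276 of 339 in HepG2 (81.4%, against 15.8% inside) and 133 of 166 in the WT-named list (80.1%, against 9.92%). Members were also narrow. A width of 200 bp was held by 168 HepG2 members (81.6%) and 67 WT-named members (67.0%), against 47.7% and 32.3% of peaks inside genes. That width is the smallest in any human list and equals the read extension assumed here. The differences were not tested and not matched for reads, whose median was lower in members.

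Members were also compared with peaks inside genes of like depth, in bins that for this measure were chosen after the values were seen. Among HepG2 peaks with 10 to 19 reads, 25 of 31 members held all the reads of their window against 35 of 450 peaks inside genes (Fisher's exact adjusted p = 1.24e-19). With 20 to 49 reads the counts were 16 of 22 against 17 of 177 (exact adjusted p = 5.13e-10). WT-named counts were 19 of 21 against 38 of 682 with 10 to 19 reads (exact adjusted p = 4.02e-20) and 8 of 13 against 12 of 114 with 50 or more (exact adjusted p = 8.59e-05). For HepG2 peaks with 50 or more reads, 4 of 9 against 16 of 61 did not pass the test (exact adjusted p = 0.265).

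A fold of at least 40, close to the limit of 50 that a background from the same library allows, was reached by 1 HepG2 member, the stack near H3P39 (0.485% against 0.784% of all peaks and 0.831% inside genes, Fisher's exact adjusted p = 1, odds ratio 0.582, which turned to 2.55 without LOC models, again short of the threshold). Among WT-named members 4 reached it, among them the sites near H3P39, NMTRL-TAA2-1 and LOC105370839 (4% against 0.966% of all peaks and 0.812% inside genes, Fisher's exact adjusted p = 0.0379). That call did not hold with 1 peak per locus (exact adjusted p = 0.0571) or where no base of a peak could lie in a gene (adjusted p = 0.126).

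**Figure D2:**
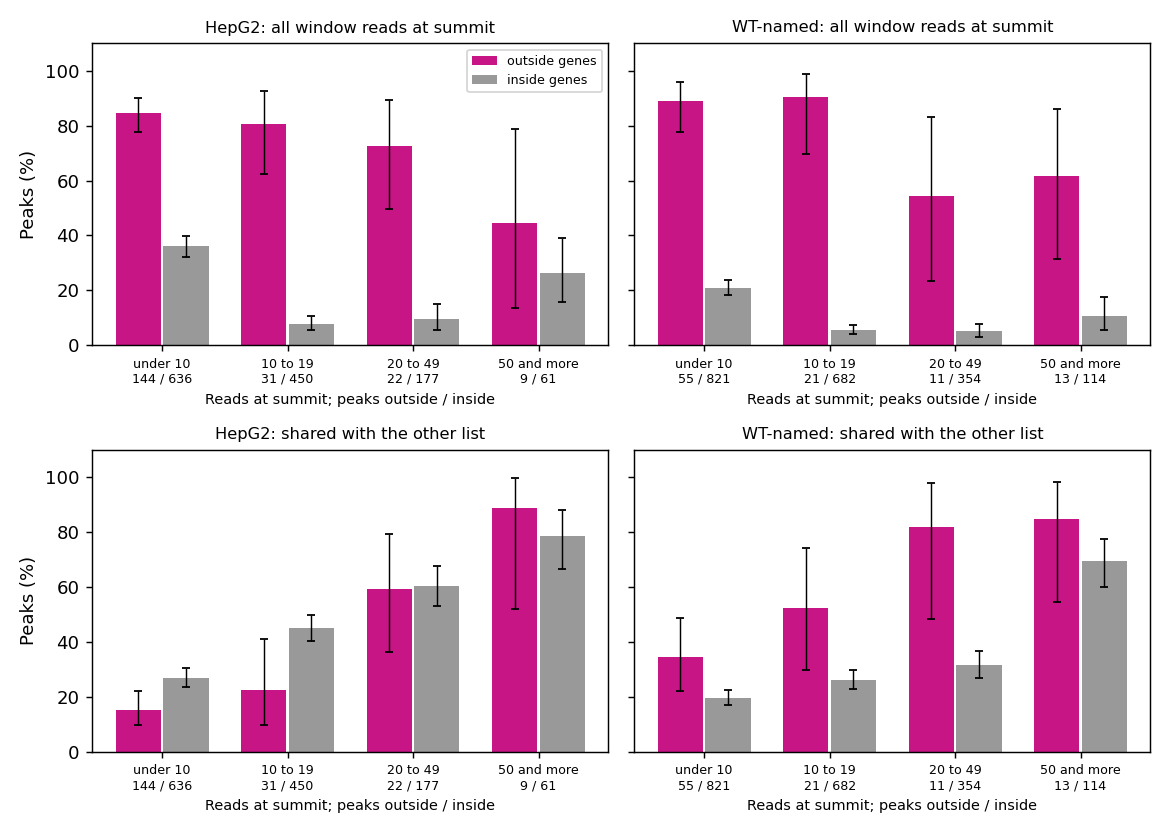
Share of peaks whose summit holds all reads of its 10 kb window (upper row) and share that overlaps a peak of the other list (lower row), by reads at the summit, for HepG2 (left) and WT-named LS174T (right), outside and inside genes. Bars start at 0, error bars are 95% Clopper-Pearson intervals, the numbers under each pair count peaks outside and inside genes, and the 25 of 31 HepG2 members with 10 to 19 reads stand far above the 35 of 450 peaks inside genes.

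The same 50 sites were shared between HepG2 and the WT-named list, where peaks on 1 strand had at least 1 base in common. All 50 partners also lay outside genes, 28 pairs had the same start and end, and 45 had summits within 5 bp of each other. As a share of HepG2 members the 50 were 24.3% (interval 18.6 to 30.7%), below the 37.8% of all HepG2 peaks and the 39.95% inside genes (Fisher's exact adjusted p = 5.67e-05). As a share of WT-named members they were 50% (interval 39.8 to 60.2%), above the 28.0% of all WT-named peaks and the 26.9% inside genes (Fisher's exact adjusted p = 9.41e-06). Shared HepG2 members had a median of 13 reads and unshared ones 5, and in the WT-named list the medians were 14.5 and 6.

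Within bins of depth the HepG2 shortfall was seen at low depth. With under 10 reads 22 of 144 HepG2 members were shared against 171 of 636 peaks inside genes (Fisher's exact adjusted p = 0.0149), and with 10 to 19 reads 7 of 31 against 203 of 450 (exact adjusted p = 0.0239). With 20 to 49 reads the counts were 13 of 22 and 107 of 177 (exact adjusted p = 1), and with 50 or more 8 of 9 and 48 of 61 (exact adjusted p = 0.772). Counted over peaks with at least 10 reads the HepG2 difference did not pass the test (exact adjusted p = 1), nor at −log10 q of 5 or more (exact adjusted p = 0.0539) or with summits required to lie within 50 bp (adjusted p = 0.326). The excess in the WT-named list passed below 10 reads (19 of 55 against 161 of 821, exact adjusted p = 0.0239), from 10 to 19 (11 of 21 against 178 of 682, exact adjusted p = 0.0239) and from 20 to 49 (9 of 11 against 112 of 354, exact adjusted p = 0.00891), but not from 50 (11 of 13 against 79 of 114, exact adjusted p = 0.458).

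Reads at the shared sites were balanced between the lists. The ratio of WT-named to HepG2 reads had a median of 1.02 (quartiles 0.652 and 2.22, range 0.0545 to 21.9), with more reads in the WT-named list at 25 sites, fewer at 23 and the same number at 2. For the 529 shared HepG2 peaks inside genes the median was 1.10 (quartiles 0.727 and 1.80). Sites such as APBB2 (42 reads in HepG2, 39 in the WT-named list, on the strand opposite to this adaptor protein gene and before its start), LOC105378962 (23 and 24) and the ribosomal RNA pseudogene RNA18SP5 (44 and 43) were near equal. Those by LOC105373928 (27 and 57), the lncRNA LOC107984480 (21 and 43) and the orphan receptor gene GPR153 (17 and 53) were deeper in the WT-named list. The site by ANKRD12 (44 and 19) was deeper in HepG2.

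A larger share of members than of bases outside genes lay close to a gene, a difference that is described here and was not tested. Gene spans left 44.8% of the sequence between the outermost genes of each chromosome uncovered, with assembly gaps counted in, and 4.59% of these bases lay within 1 kb of a gene end. Of HepG2 members 43 (20.9%, interval 15.5 to 27.1%) lay within 1 kb, and of WT-named members 34 (34.0%, interval 24.8 to 44.2%). The median distance was 9397 bp in HepG2 (quartiles 1558 and 26003) and 5278 bp in the WT-named list (quartiles 320 and 18332). Within 10 kb lay 50.97% of HepG2 and 57.0% of WT-named members against 30.4% of the bases, and beyond 50 kb 12.6% and 11.0% against 33.5%.

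The difference between the lists within 1 kb was marginal (Fisher's exact adjusted p = 0.0419, odds ratio 0.512). It was lost under 5 other settings, among them peaks with at least 10 reads (exact adjusted p = 1). The lists did not differ by the test within 5 kb (39.8% and 47.0%, Fisher's exact adjusted p = 0.477), within 10 kb (exact adjusted p = 0.518) or beyond 50 kb (exact adjusted p = 1).

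**Figure D3:**
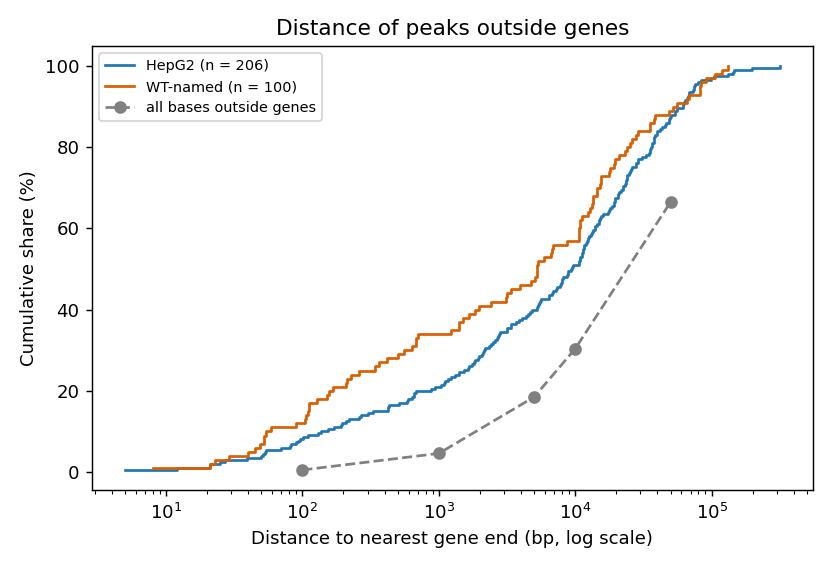
Cumulative share of members by distance of the summit to the nearest gene end (log axis) for HepG2 and the WT-named LS174T list, with the share of all bases outside genes at 100, 1000, 5000, 10000 and 50000 bp. Both lists run above the bases at each marked distance, for example 20.9% and 34.0% against 4.59% at 1000 bp.

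Depth and the share standing alone are given by distance. HepG2 members within 1 kb of a gene had a median of 11 reads, and 20 of 43 (46.5%) held all reads of their window, while from 1 to 10 kb the median was 4.5 reads and 56 of 62 (90.3%) did. From 10 to 50 kb the HepG2 median was 5 reads and 68 of 75 (90.7%) did. The WT-named list did not show this order, with 27 of 34 (79.4%) within 1 kb and 18 of 23 (78.3%) from 1 to 10 kb, with medians of 9.5 and 6 reads, and 27 of 32 (84.4%) from 10 to 50 kb, with a median of 10. Sharing was lowest beyond 50 kb, where 2 of 26 HepG2 and 2 of 11 WT-named members had a partner. These splits by distance were not tested.

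Among members with at least 10 reads, 62 from HepG2 and 45 WT-named, those nearest to a gene in HepG2 included the sites by HSPB1 (5 bp), MYOCOS (21 bp, 15 reads), MTRNR2L1, a nuclear copy of mitochondrial rRNA (27 bp, 20 reads), and LGALS1 (53 bp). In the WT-named list they included those by FAM50A (8 bp, 13 reads), MYOCOS (21 bp, 66 reads), VTRNA2-1 and LGALS1 (52 bp). The MYOCOS site lay before the start of the gene on the opposite strand in both lists. The border of the rule cut through such sites. In HepG2 8 members lay within 50 bp outside a gene end (3 to 66 reads) and 14 other peaks within 50 bp inside (3 to 95 reads, TERC and H2BC10 among them), and in the WT-named list 7 lay outside (3 to 84 reads) and 23 inside (4 to 122 reads, GAPDH and RPL35 among them).

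Of members with at least 10 reads the farthest from any gene in HepG2 were a minus-strand stack of 10 reads on chromosome X, 143152 bp from LOC101928359, and a plus-strand stack of 21 reads on chromosome 2, 132511 bp from LOC107985958, which the WT-named list shared with 7 reads. They were followed by stacks 75545 bp past PRR32 (27 reads), 74338 bp from LOC105377881 (10 reads) and 62563 bp from the U6 pseudogene RNU6-839P (10 reads). All 5 held every read of their window. The farthest WT-named members lay 84065 bp from LOC124902137 (12 reads), 82733 bp from LOC101928201 (22 of 109 window reads), 65681 bp from LOC105371956 (11 reads), 56134 bp from LOC107986905 (24 reads, and 9 in HepG2) and 48355 bp from the chemokine receptor gene CXCR4 (36 reads, and 3 in HepG2).

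A preference for 1 strand did not pass the test in either list. The plus strand carried 114 of 206 HepG2 members (55.3%, interval 48.3 to 62.3%, exact binomial adjusted p = 0.298) and 53 of 100 WT-named members (53.0%, interval 42.8 to 63.1%, exact adjusted p = 0.857), where all peaks gave 52.7% and 50.8%. The strand of the nearest gene was known for 105 and 52 members, and 49 (46.7%, interval 36.9 to 56.7%) and 26 (50%, interval 35.8 to 64.2%) lay on it (exact binomial adjusted p = 0.821 and 1). Peaks inside a single gene of known strand lay on its strand in 770 of 900 cases in HepG2 (85.6%) and 1257 of 1320 in the WT-named list (95.2%). The difference between these shares and those of members was not tested.

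Close to genes the most frequent placing was before the start on the opposite strand. Within 5 kb, 19 of 46 HepG2 members of known placing lay there, 11 before the start on the gene's strand, 9 past the 3′ end on the gene's strand and 7 past it on the opposite strand. WT-named counts were 13, 6, 6 and 2 of 27. This split was not tested, and the gene's strand was known for only 46 of 82 HepG2 and 27 of 47 WT-named members within 5 kb. Examples of the opposite strand before the start are MARCHF9, MYOCOS, GPR153 (631 bp, 17 reads in HepG2), PPP1R15B, a regulator of eIF2 alpha dephosphorylation (331 bp, 18 reads in the HepG2 list and 22 in the WT-named one), and APBB2. All these sites were shared, so the counts of the 2 lists are not independent. Beyond 5 kb the counts were 15, 9, 20 and 15 of 59 in HepG2 and 3, 10, 4 and 8 of 25 in the WT-named list. Of all same-strand members 29 of 49 in HepG2 lay past the 3′ end (59.2%, exact binomial adjusted p = 0.477) and 10 of 26 in the WT-named list (38.5%, exact adjusted p = 0.518), and the lists did not differ by the test (Fisher's exact adjusted p = 0.220).

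**Figure D4:**
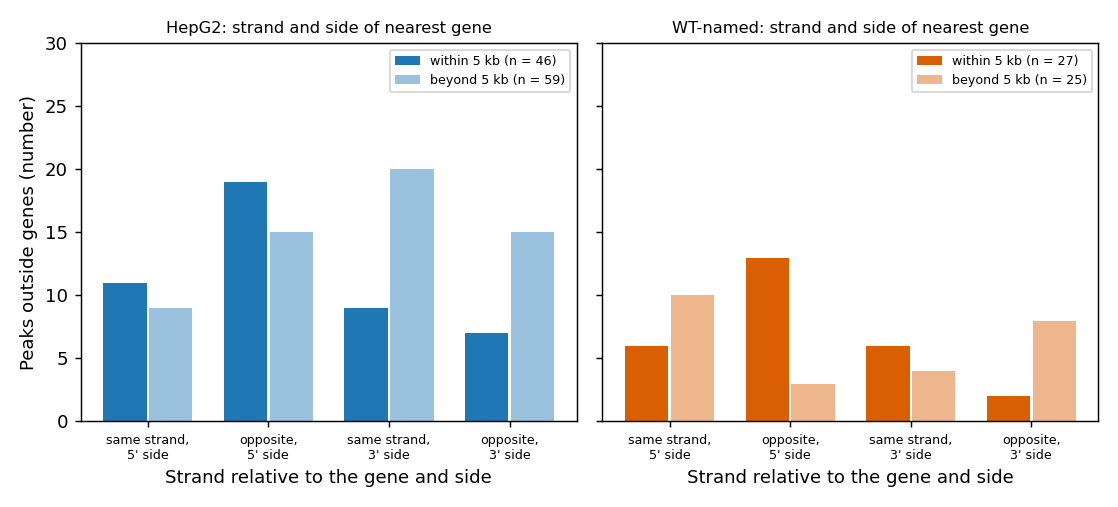
Number of members by strand relative to the nearest gene and by the side of the gene, for distances up to 5 kb (dark) and beyond (light), in HepG2 (left) and the WT-named LS174T list (right), where the gene's strand was known. Up to 5 kb the opposite strand on the 5′ side is the tallest bar in both lists, with 19 and 13 members. Some sites count in both lists, and the split was not tested.

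Few members had another peak close by on their strand. Another peak on the same strand within 10 kb was found for 3 of 206 HepG2 members (1.46%), against 10.1% of all HepG2 peaks and 11.5% of those inside genes, and for 2 of 100 WT-named members (2.00%), against 24.9% of all and 26.0% inside (Fisher's exact adjusted p = 3.36e-07 and 2.92e-10 over 2 tests chosen after the values were seen). In HepG2 these were a pair of peaks with 44 and 39 reads among ribosomal RNA pseudogenes on chromosome 21 (8253036 to 8257479) and the HSPB1 site. In the WT-named list they were the minus-strand pair near LOC100271832. The lists did not differ by the test in this share (exact adjusted p = 0.873) or in members with a peak inside a gene near by, 1 of 206 and 0 of 100, which allows up to 3.62% (exact adjusted p = 1). With 50 kb in place of 10 kb both differed, with more such members in the WT-named list (Fisher's exact adjusted p = 0.00967 for each).

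The nearest gene itself held a peak in the same list, on either strand, for 8 HepG2 members (3.88%) and 4 WT-named members (4%). The share of all annotated genes that held a peak was not worked out, so these counts show neither an excess nor a shortfall. ATP1B1 held up to 45 reads inside the gene in the WT-named list and had no peak in HepG2. The deepest case was the stack 132511 bp from LOC107985958, with 21 reads in the HepG2 list and 7 in the WT-named one, whose nearest gene held a peak of 755 and 277 reads. MTRNR2L1, 27 bp from a HepG2 member of 20 reads, held no HepG2 peak and a WT-named peak of 851 reads. RAE1, an mRNA export factor gene, held 7 reads and the site 268 bp from it 18, both in HepG2, and the SPTSSB and ABHD11 genes held 18 and 13 reads beside outer sites of 7 and 13.

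Peaks on both strands of a site were rare. They occurred near LOC100271832, as given above, and 1237 bp before TMEM216, a cilium gene, with 37 plus-strand and 8 minus-strand reads in HepG2 and 8 on each strand in the WT-named list.

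The nearest gene was protein-coding for 80 HepG2 members (38.8%), a lncRNA for 73 (35.4%) and a pseudogene for 46 (22.3%), and in the WT-named list for 40, 32 and 21 of 100. Median distances were 3510 bp to protein-coding genes, 14952 bp to lncRNAs and 12317 bp to pseudogenes in HepG2. A microRNA was nearest for 5 and 3 members and a tRNA for 1 in each list, TRP-TGG1-1 at 192 bp in HepG2 and TRT-CGT4-1 at 127 bp in the WT-named list, each with 7 reads. No member of either list had a replication histone gene as its neighbour. Genes with a symbol starting in ZNF, pseudogenes left out, were nearest for 2 WT-named members and 0 HepG2 members. They are only some of the zinc finger genes. The pseudogene ZNF861P was nearest to a HepG2 member of 4 reads, at 2326 bp. Neighbours named as mitochondrial pseudogenes, a group chosen after the values were seen, numbered 5 in HepG2 with a median of 20 reads and 3 in the WT-named list with a median of 29. The share of each class among all genes was not worked out. No count of neighbours here, the absence of histone genes included, therefore shows an excess or a shortfall.

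Peaks outside genes were a larger part of the HepG2 list than of the WT-named list, 13.5% (interval 11.8 to 15.3%) against 4.83% (interval 3.95 to 5.84%), with a Fisher's exact adjusted p of 6.03e-19. The share in HepG2 ranged over chromosomes from 4.71% on chromosome 16 (4 of 85) and 5.32% on chromosome 19 (5 of 94) to 27.3% on chromosome 13 (9 of 33) and 28.8% on chromosome 4 (15 of 52). In the WT-named list it ran from 0 of 28 on chromosome 13 to 7 of 60 on chromosome X (11.7%). HepG2 had the higher share on every chromosome from 1 to 22 and on X, differences that were not tested one by one.

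The KO-named list held 5 members, all on the plus strand, and each overlapped a WT-named member. They were 5 of 100 WT-named members, against 1.69% of all WT-named peaks that overlapped a KO-named peak, and 4 of them overlapped 4 of 206 HepG2 members, against 1.76% of all HepG2 peaks. These differences were not tested. The site near NMTRL-TAA2-1 held 39 reads (exact Poisson interval 27.7 to 53.3), against 406 in the WT-named list and 102 in HepG2. The site near LOC100271832 held 11, 94 and 347 reads in the same order, and a site 14335 bp from LRRC34P2 4, 19 and 26. Another lay 119362 bp before CNTNAP2, a neurexin family gene, with 5 reads in the KO-named and 6 in the WT-named list and no HepG2 peak. The stack near H3P39, deepest in the other lists, had no KO-named peak. With 5 members no test was made, and each list has its own depth.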

How the data were processed

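Cutadapt, BWA and MACS2 are named, with builds hg38 and mm10, per the submitters' processing notes. The sources used here do not give their versions or settings. For each group the authors deposited 1 peak list, called per strand by the peak names. Each deposited peak has a score, its fold (the ratio of summit to local background) and the −log10 of p and q. Whether the 2 HepG2 IPs were pooled was not stated.

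Reads were recovered here from fold = (n + 1) / (λ + 1) and the Poisson p of more than n reads, with λ a multiple of 0.02 (10000 bp window, 200 bp extension). A unique solution was found for 1552 of 1557 HepG2, 2095 of 2103 WT-named and 46 of 46 KO-named peaks. The others are approximate and none was a member. On peaks simulated with the same formulas and steps 300 of 300 were recovered for each of HepG2 and the WT-named list. This checks the calculation and not the assumed window and extension. Genes, without exons, came from the RefSeq table of GRCh38.p14 (59098 genes on chromosomes 1 to 22 and X, 28967 with a strand through the promoter and microRNA tables, from which all sequences were copied). Positions are 1-based.

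Shares carry Clopper-Pearson 95% intervals. Two-sided Fisher's exact and exact binomial tests (SciPy 1.17.1) were adjusted by Benjamini-Hochberg over 25 tests, and over 8 for each set of depth bins. Named regions were all KO-named members, the 10 deepest of each other list, the 15 deepest shared, the 5 nearest and 5 farthest with at least 10 reads, and loci with most members. A region added beyond these was chosen after its values were seen. Some regions under this rule are not reported here. Members, lists and tests were chosen with earlier results of these data known.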

Additional observations from a re-analysis of the deposited data

Results flagged for a closer look

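Peaks on sequences that the rule leaves out were found in each human list. Scaffolds carried 1.03% of HepG2 and 0.666% of WT-named peaks, and the mitochondrial genome 0.642% and 0.618%, where a count of 0 would allow up to 0.193% and 0.143%. In the KO-named list the mitochondrial genome carried 15.2% of peaks (7 of 46), above the 6.52% that a count of 0 allows.

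In 3 comparisons of peaks outside with peaks inside genes the odds ratios lay on opposite sides of 1 in the 2 lists, and the difference between the lists was not tested. For sharing with the other list the odds ratio was 0.482 for HepG2 and 2.72 for WT-named peaks, each past its own test, and the same 50 sites enter both. They are set against lists with unlike shares of peaks outside genes (13.5% and 4.83%), so these odds ratios are not separate from that difference. For at least 50 reads it was 0.946 and 2.43, and for a fold of at least 40 it was 0.582 and 5.09, with 1 HepG2 member and 4 WT-named members at that fold. The opposite sides did not hold for these 2 measures, since without LOC models the HepG2 odds ratios were 1.80 and 2.55, neither past its test.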

How the results depend on the processing

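Of 25 tests 10 passed, and 128 of 164 values under 12 planned settings and 1 added setting kept their direction and side of the threshold. The share outside genes, standing alone in both lists and the WT-named excess of sharing kept theirs wherever run. Odds ratios that lost the call were as follows. With no base in a gene: WT-named at least 50 reads 1.61, under 10 reads 1.68, fold at least 40 4.18, within 1 kb 0.506. With gene spans of the peak strand only (those of unknown strand kept), within 1 kb 0.633, and without LOC models 0.621. With −log10 q of at least 5: HepG2 sharing 0.581, HepG2 under 10 reads 1.63, WT-named under 10 reads 1.04, within 1 kb 0.658. With at least 10 reads: HepG2 sharing 0.839, within 1 kb 0.971. With 1 peak per locus: WT-named under 10 reads 1.43, fold at least 40 4.35. With summits within 50 bp, HepG2 sharing 0.772. By the base at which a peak begins, a setting chosen after seeing the data: WT-named at least 50 reads 1.94, fold at least 40 3.17. With 50 kb between peaks, a locus with another peak had an odds ratio of 0.220, now past the threshold, and one with a peak inside a gene 0.178, a reversal from 1.47, which had not passed. The other 17 of 18 values that crossed 1 passed the test neither before nor after. For HepG2 at least 50 reads (0.946) they were 1.23 with spans of the peak strand only, 1.80 without LOC models, 1.36 with −log10 q of at least 5, 1.75 with at least 10 reads and 1.13 with 1 peak per locus. HepG2 fold at least 40 (0.582) gave 1.17 with peak strand spans, 2.55 without LOC models and 1.01 with at least 10 reads. HepG2 past the 3′ end (1.45) gave 0.917 with −log10 q of at least 5 and 0.875 with at least 10 reads. With at least 10 reads, HepG2 against the WT-named list gave 1.09 within 5 kb, 1.39 within 10 kb, 1.55 for the strand of the nearest gene and 1.09 for a locus with another peak. With peak strand spans the WT-named plus strand gave 0.976 and a locus with a peak inside a gene 0.979, and by the base at which a peak begins the latter gave 0.0765. The causes were not tested.

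Strand tests against the nearest gene gave no value with spans of the peak strand only, where the neighbour's strand, if known, is fixed. Tests that a setting empties were not run. No paired analysis was possible because the lists carry no replicate numbers. Peaks of 3 to 6 reads, 112 of 206 HepG2 and 41 of 100 WT-named members, limit what absence from the other list can show.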
